A study of Marmota monax with 20 samples.

Results

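Kidney-restricted genes were taken as genes with a high read count in every kidney library and a low one in every library of the other tissues. Read counts were divided by a size factor per library (the median ratio to the geometric mean over genes counted in all 20 libraries), which gives the normalized count used as the level below. The score of a gene was its lowest level among the 5 kidneys over its highest level among the 15 other libraries plus 5. Genes with a score of at least 8, a lowest kidney level of at least 200 and a ratio of highest to lowest kidney of at most 5 were kept. These limits were met by 101 of the 30973 genes (0.326%), fewer than the 150 at which the list would have been capped, so all of them were kept.

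The libraries came from RNA-seq of adult Eastern woodchucks (Marmota monax) of both sexes that were negative for woodchuck hepatitis virus. The study names no treatment of these animals. Kidney was available from the females F6849 and F9150 and the males M4046, M4075 and M4091, 1 library each, and spleen from the same 5 animals. Liver was available from these animals and the female F6852. Heart and lung of F6849 and pancreas and thymus of F9150 gave 1 library each, without replicates. The total count per library ran from 59487004 to 140252555. Each replicate of a tissue was a different animal. The labels do not state which region of the kidney was sampled.

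The kidney filters blood plasma in the glomeruli and recovers water, salts, sugars and amino acids along the tubules. The segments of the nephron differ in the transporters, channels and enzymes that they carry, and genes found in kidney and in few other organs often encode such proteins or the factors that control them. In a piece of tissue, fewer cells of a segment and less RNA per cell give the same lower count and cannot be told apart. The count table pairs the identifiers of the Monax4B annotation with no gene names, and 0 of them occur in the RefSeq gene table of the species used here. The genes are therefore given by identifier, and the kidney label was not checked against known markers. Gene lengths were not used here either, so that levels are compared between libraries and not read as molecules per gene.

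**Figure D1:**
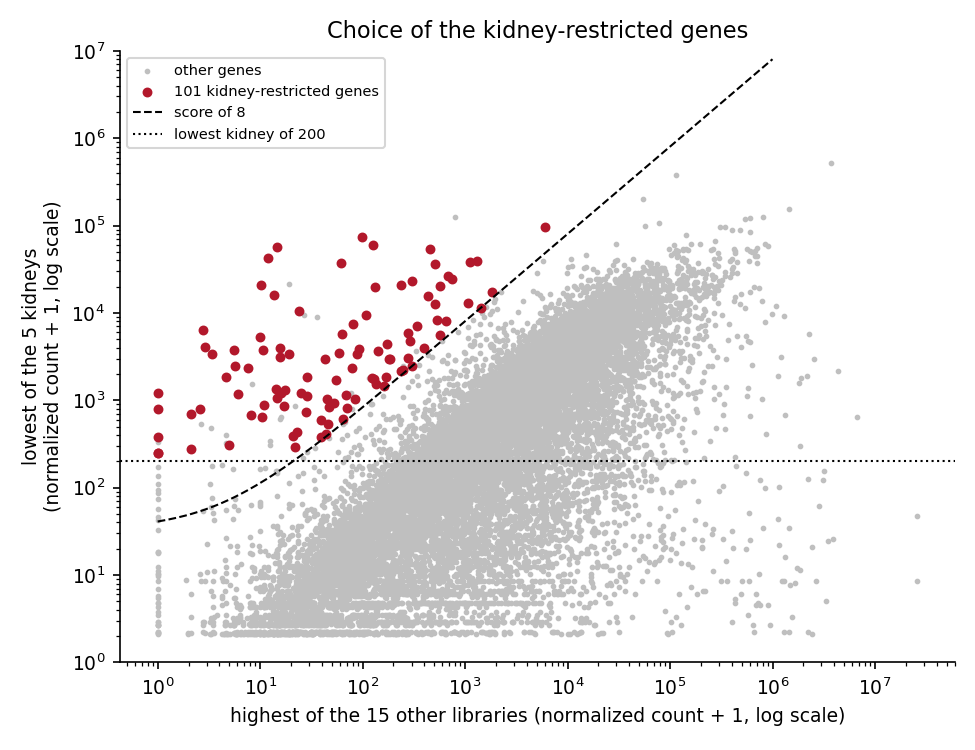
Lowest level of each gene among the 5 kidneys (vertical) against its highest level among the 15 other libraries (horizontal), both as normalized count + 1 on log scales, 1 point per gene. The 101 kidney-restricted genes (red) lie above the dashed line (score of 8) and the dotted line (level of 200); grey points above both lines are the 21 genes whose kidneys differed by more than 5-fold.

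The limits fell at different places among the genes. A score of at least 8 was found for 140 genes (0.452% of all), and 122 of these also had at least 200 in every kidney. Of the 122, 21 were left out because their highest kidney was more than 5 times the lowest. The nearest of them was Monax4B024483, at 5.11 times. Another 13 genes had the score and the ratio but a kidney below 200. Just inside the score limit were Monax4B033465 (8.06) and Monax4B008271 (8.04), and just outside were Monax4B029389 (7.91) and Monax4B017721 (7.87). The scores of the 101 genes had a median of 38.5. They reached 100 in 27 genes and 1000 in 3, and 11 genes lay below 10. These values chose the genes and are given as a description.

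The highest score, 3055, was that of Monax4B020296. Its level was 83413 in the kidney of F6849, 107519 in F9150, 65300 in M4046, 101081 in M4075 and 56656 in M4091, and at most 13.5 in any of the 15 other libraries (median 2.21). All 5 kidneys thus stood far above every other library. The second was Monax4B004469, with a score of 2675. Its kidney levels were 42869, 45152, 46111, 52989 and 43965 in the same order of animals, and its highest level elsewhere was 11.03, in lung. The kidneys differed little for this gene, at 46217 ± 3978 (SD, n = 5).

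In 5 of the 101 genes no read was counted in any of the 15 other libraries. They were Monax4B036447, Monax4B016906, Monax4B011029, Monax4B031282 and Monax4B037617, named after their values were seen, with mean kidney levels of 2585, 1540, 461, 536 and 421. Against a limit of 3 counts over the 15 libraries together, the kidney mean of Monax4B036447 was at least 12406-fold higher and that of Monax4B037617 at least 2021-fold higher. These bounds hold for the 15 libraries pooled, and the bound against any 1 tissue alone is lower. Most counts were even, as when both mates add to a count, and with the limit set at 3 read pairs these bounds would be 2 times lower. A further 11 genes had between 1 and 10 counts over all 15 libraries. The highest level outside kidney was under 5 in 15 genes, from 5 to 50 in 34, from 50 to 500 in 38 and over 500 in 14. The 14 genes of the last class also had high kidney levels, with a median mean level of 31538 against 1540 in the first class, since the score divides one by the other.

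**Figure D2:**
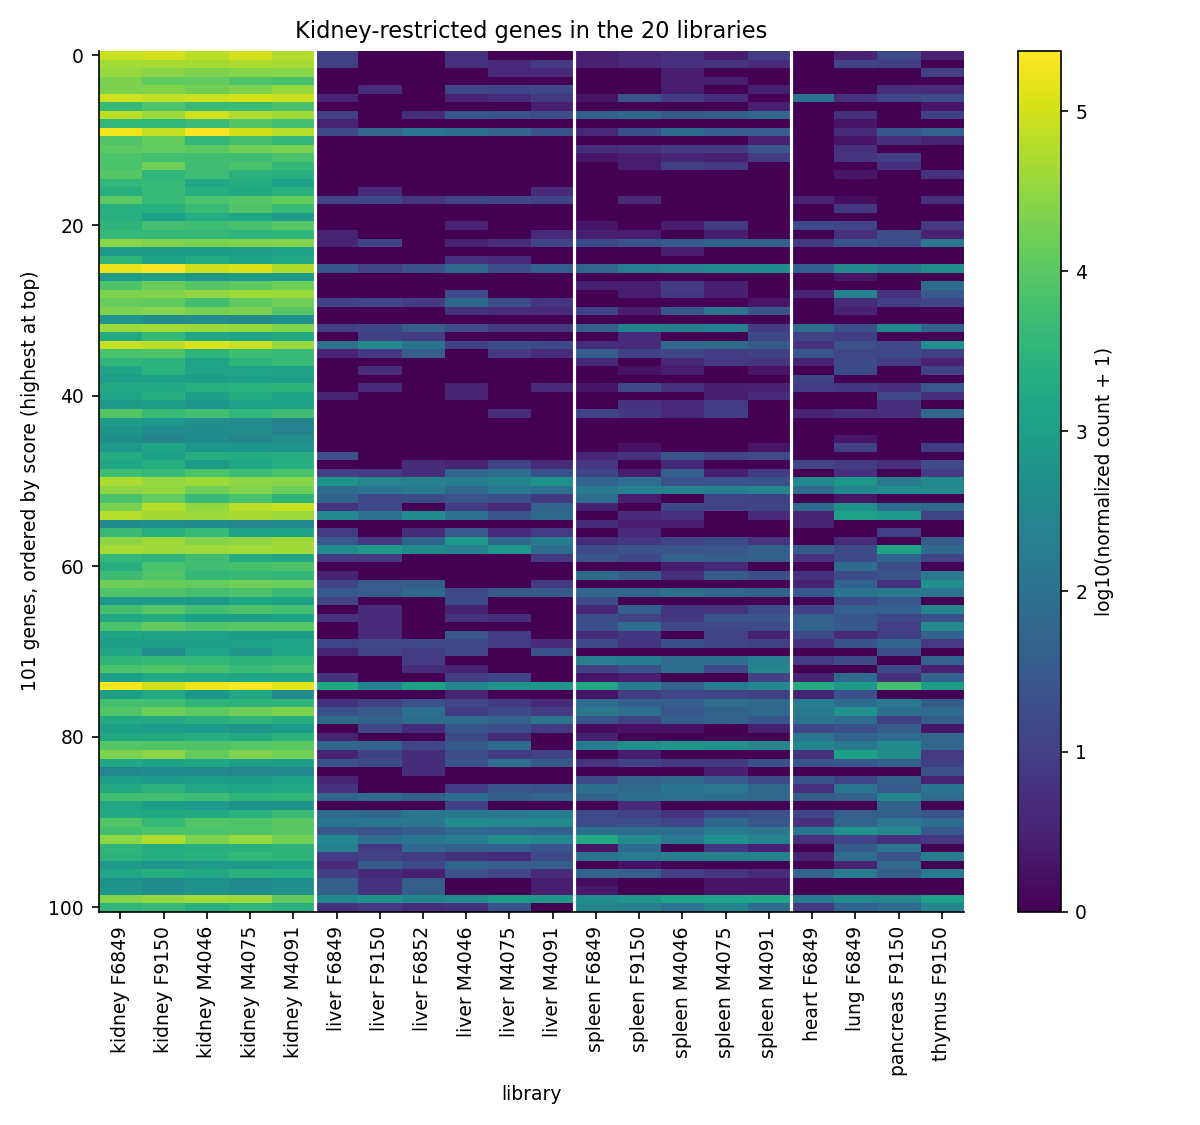
Level of each of the 101 genes (rows, highest score at the top) in each of the 20 libraries (columns), as log10(normalized count + 1); white lines separate kidney, liver, spleen and the 4 single libraries. The kidney columns are high in every row by the choice of the genes, whereas 51 of the rows stay at or below 1% of their kidney mean in every other tissue. Liver and spleen enter that number as means. Single libraries of such a row can exceed 1%, as Monax4B002311 does in the liver of M4075, at 1.62%.

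The kidney levels of the 101 genes covered a wide range. The mean over the 5 kidneys ran from 343 to 169943, with a median of 4596 and quartiles of 1540 and 13850. Together the genes held 2.67% ± 0.287 (SD, n = 5) of the counts of a kidney library. The share was 2.87% in F6849, 2.74% in F9150, 2.78% in M4046, 2.78% in M4075 and 2.16% in M4091. In the other tissues it was between 0.00220% and 0.00291% in the 6 livers, between 0.00744% and 0.00998% in the 5 spleens, and 0.0146% in lung, 0.00961% in thymus, 0.00671% in pancreas and 0.00521% in heart. The half-width of the 95% Wilson interval was at most 0.00390 percentage points in the kidneys and 0.000235 in the other libraries. It covers counting error only and takes the counts as independent, so it is too narrow where both mates were counted.

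The most abundant of them, here meaning the highest mean kidney level without regard to gene length, was Monax4B027271. Its level was 205176 in F6849, 95657 in F9150, 170823 in M4046, 238576 in M4075 and 139486 in M4091, and it held 10.8% ± 3.04 (SD, n = 5) of the counts of the 101 genes in kidney. The kidney of F9150 was thus the lowest for this gene. It also had the lowest score of the 10 most abundant genes, with 6083 in pancreas, 2069 in heart, 1054 in thymus and 831 in lung. Liver had 265 to 1616 (median 627) and spleen 48.0 to 1698 (median 206). The highest liver and the highest spleen were both those of F6849. The second most abundant, Monax4B010080, gave 163291, 217354, 93143, 123031 and 53645 in the 5 kidneys and at most 455, in thymus. For this gene F9150 was the highest and M4091 the lowest. The 10 most abundant genes together held 56.3% ± 4.93 (SD, n = 5) of the counts of the 101 genes. At the other end, Monax4B046198 had a mean level of 343 ± 48.2 and Monax4B000958 one of 381 ± 96.0 (SD, n = 5 for both). Outside kidney the first had 18 counts in thymus and at most 2 elsewhere, and the second had 2 counts in lung and 0 in the other 14 libraries.

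The levels summed over the 101 genes are given as a description, since the rule required low levels outside kidney. As a percent of the kidney mean, the sum was 0.261% ± 0.0320 (SD, n = 6) in liver and 0.317% ± 0.0497 (SD, n = 5) in spleen, and 0.287% in heart, 0.479% in thymus, 0.536% in lung and 0.811% in pancreas. A single gene weighed heavily on some of these. Monax4B027271 held 47.9% of the summed counts in pancreas and 46.1% in heart, and without it the sums were 0.474% and 0.173%. In lung the sum without it was 0.542%, so that lung, not pancreas, was then the highest. The order also depended on the scaling. From the shares of the library totals, a calculation added after seeing the data, lung was the highest with all genes, at 0.548% of the kidney share. Thymus followed at 0.361%, spleen at 0.322% ± 0.0361 (SD, n = 5), pancreas at 0.252%, heart at 0.195% and liver at 0.0921% ± 0.0103 (SD, n = 6). On that scale the sums of pancreas and liver were thus about 3 times lower than with size factors. Lane numbers were read from the column names, which name no run or flow cell. The livers with the lane number of a kidney library had sums of 0.253% and 0.313%. These lay within or just above the range of 0.220% to 0.280% of the other 4. The spleens with such a lane number had 0.261% and 0.285%, below the 0.311% to 0.389% of the other 3. Without Monax4B027271 these spleens had 0.2783% and 0.3158%, against 0.3152% to 0.3677% in the other 3, so that the ranges overlapped slightly. The livers then had 0.232% and 0.235%, within the 0.204% to 0.275% of the other 4. The pancreas library also shared a lane number with a kidney. Among the genes, the levels in a tissue followed those in kidney loosely, with Spearman's rho between 0.245 (heart) and 0.497 (spleen of M4046) over the 101 genes in the 15 libraries. These correlations are across genes that were chosen on the same counts, and are a description.

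**Figure D3:**
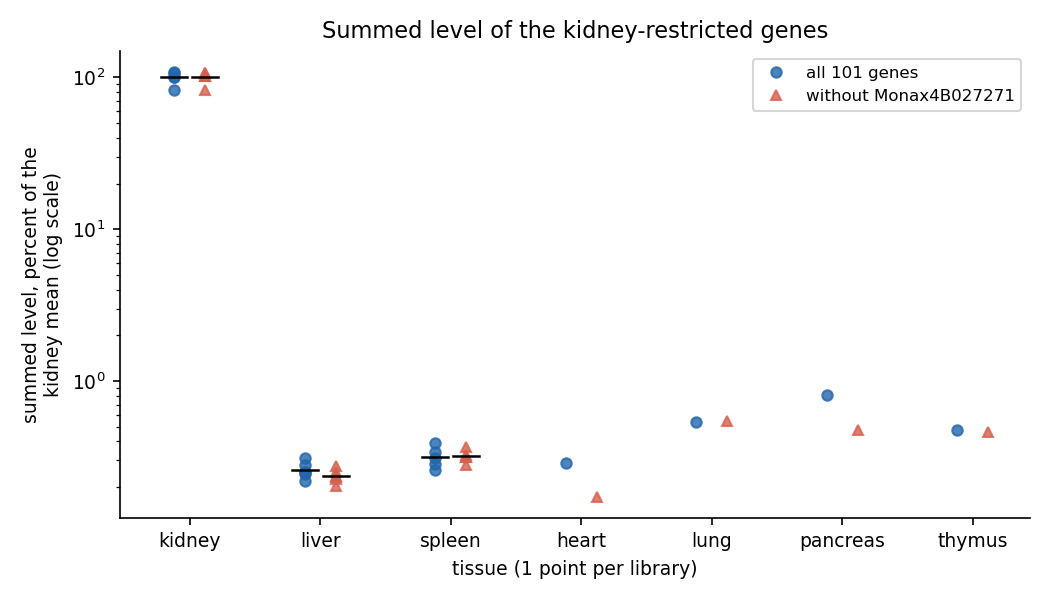
Summed level of the 101 genes in each library as a percent of the mean kidney sum, on a log scale, with all genes (circles) and without Monax4B027271 (triangles); bars are means of the tissues with replicates. All 15 other libraries lie between 0.220% and 0.811% with all genes, and the pancreas and heart points drop most when the 1 gene is left out.

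Many of these genes gave few or no reads outside kidney. With at least 10 counts, 20 to 38 of the 101 genes were found in the 6 livers (median 26.5), 38 to 42 in the 5 spleens (median 40), 28 in heart, 35 in pancreas, 44 in thymus and 55 in lung. Between 26 genes (lung) and 55 genes (liver of F6852) had 0 counts in a library. These numbers are not adjusted for the depth of the libraries. After scaling, 51 of the 101 genes stayed at or below 1% of their mean kidney level in every other tissue, 17 exceeded 1% in 1 tissue and 33 in several. By tissue, 29 genes exceeded 1% in lung, 26 in pancreas, 22 in thymus, 17 in spleen, 14 in heart and 12 in liver, with tissue means for liver and spleen. Lung and pancreas shared 18 genes, most of the 29 and of the 26. Spleen and thymus shared 9 of their 17 and 22. With each count divided by the library total in place of the normalized counts, a scaling chosen after seeing the data, pancreas fell to 12 genes, liver to 6, heart to 9 and thymus to 18, whereas lung stayed at 29 and spleen at 17.

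The genes with the highest share of their kidney level were spread over the tissues. In liver, Monax4B045824 had the highest share of its kidney level, 4.79%, with 61.9 to 168 in the livers and 1862 to 4172 in the kidneys. Spleen was lower for this gene, at 4.80 to 19.1. In spleen the highest share was 6.43%, for Monax4B018400, with 101 to 245 in the spleens, 3.66 to 14.5 in the livers and 188 in thymus. Monax4B008271 had 78.4 to 287 in the spleens and the highest share of any in thymus, 9.46%, with a level of 304. In lung the highest share was 7.60%, for Monax4B041408, which had 569 there, 80.2 to 170 in the spleens and 5552 to 9889 in the kidneys. In pancreas it was 7.86%, for Monax4B019389, with 63.2 in pancreas, 3.60 to 52.8 in liver and at most 0.818 in the spleens. In heart it was 5.94%, for Monax4B010590, with 128 in heart and 1731 to 2955 in the kidneys. Each of the 6 tissues thus had a different leading gene.

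The 4 tissues with 1 library did much of the work of the choice. With liver and spleen alone as the other tissues, 234 genes met the limits, 133 more. Of these 133, lung was high enough to keep out 90, pancreas 81, thymus 46 and heart 44, most of them by more than 1 tissue. Pancreas alone kept out 21, lung alone 19, thymus alone 11 and heart alone 5. With 1 library each, these 4 tissues have no replicate and the numbers describe the libraries.

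Liver and spleen were compared over all genes to see whether the low levels of the kidney-restricted genes differ between them, since the rule used only the highest of the 15 other libraries. Levels in the 6 livers and 5 spleens were tested with edgeR's quasi-likelihood test with calls at an adjusted p under 0.05 (Benjamini-Hochberg, over all genes tested). The filter on low counts, about 10 counts in at least 5 of the libraries, was passed by 37 of the 101 genes. A gene could pass through the tissue in which it is high alone, which favours differences among those tested. Of the 37, 27 differed (73.0%), against 73.9% of the 19384 genes tested, a share close to that of genes in general. Higher in liver were 8 (21.6%, against 33.9% of all genes) and higher in spleen 19 (51.4%, against 40.0%). The median log2 difference of liver over spleen was -1.02 among the 37 genes and -0.15 over all genes. With library sizes alone, a scaling chosen after seeing the data, the median of all genes moved to -1.66 and that of the 37 genes to -2.53. The calls were then 6 higher in liver and 23 higher in spleen among the 37, and 2586 and 14288 over all genes. Every spleen was above every liver in 14 of the 37 genes (30.1% of all genes tested), and every liver above every spleen in 5 (27.4%). The other 64 genes were not tested, their highest count in any liver or spleen having a median of 9. In settings that tested more of the 101 genes, the balance between liver and spleen was more even. DESeq2 called 45 of 91 (62.0% of all genes), 19 higher in liver (29.3%) and 26 higher in spleen (32.7%). Both shares are over genes with any count in liver or spleen, whether or not DESeq2 gave them an adjusted p. Without a filter 46 of 91 were called (60.7%), 19 higher in liver (26.8%) and 27 higher in spleen (33.9%). With the kidney libraries in the fit all 101 were tested and 53 called (74.0%), 22 higher in liver (34.5%) and 31 higher in spleen (39.5%). The median log2 difference was then -0.09 among the 101 genes and -0.14 over all genes, with DESeq2 -0.16 and -0.12, and without a filter -0.51 and -0.34. Only the fit with the kidney libraries tested all 101 genes. There they passed the filter, and took part of their spread, through the kidneys, where the rule made them high. This fit therefore cannot show whether the lower median holds over all 101. With DESeq2 and without a filter, on 91 genes, the median stayed below that of all genes, but less far below than among the 37. With the animal as a block, 28 of 37 differed (71.4% of all genes), and with the lane as a block 25 of 37 (64.8%).

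Higher in liver, Monax4B043008 had 351, 99.7, 388, 113, 25.6 and 72.3 in the livers of F6849, F9150, F6852, M4046, M4075 and M4091. In the spleens it had 0, 3.27, 4.80, 0 and 3.82, so that the groups did not overlap. The log2 difference was 6.18 (SE 1.02, adjusted p = 0.00016, edgeR). The same gene had 1104 in lung and 799 in pancreas. Monax4B008503 had 31.2, 6.87, 53.0, 752, 58.5 and 177 in the livers and 3.97 to 15.9 in the spleens, with a log2 difference of 4.34 (SE 1.09, adjusted p = 0.00339, edgeR). Liver M4046 stood far above the other livers, liver F9150 lay within the range of the spleens, and without liver M4046 the difference was 2.92 (adjusted p = 0.00446, edgeR).

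Higher in spleen, Monax4B001585 had 180, 154, 83.2, 93.8 and 180 in the spleens of F6849, F9150, M4046, M4075 and M4091. It had 0 in 5 livers and 8.16 in that of F6852, from 4 counts, so that the groups did not overlap. The fitted log2 difference of liver over spleen, -6.82 (SE 0.85, adjusted p = 1.64e-05, edgeR), rests on these 4 counts, and without liver F6852 it was -10.10 (adjusted p = 1.25e-05). Monax4B045969 had 9.92, 21.3, 97.6, 14.2 and 290 in the spleens and at most 4.08 in the livers, where 4 livers had 0. The groups did not overlap, but the spleens differed widely among themselves. Its fitted log2 difference was -6.19 (SE 1.21, adjusted p = 0.000606, edgeR) and -4.93 without spleen M4091 (adjusted p = 0.00106).

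**Figure D4:**
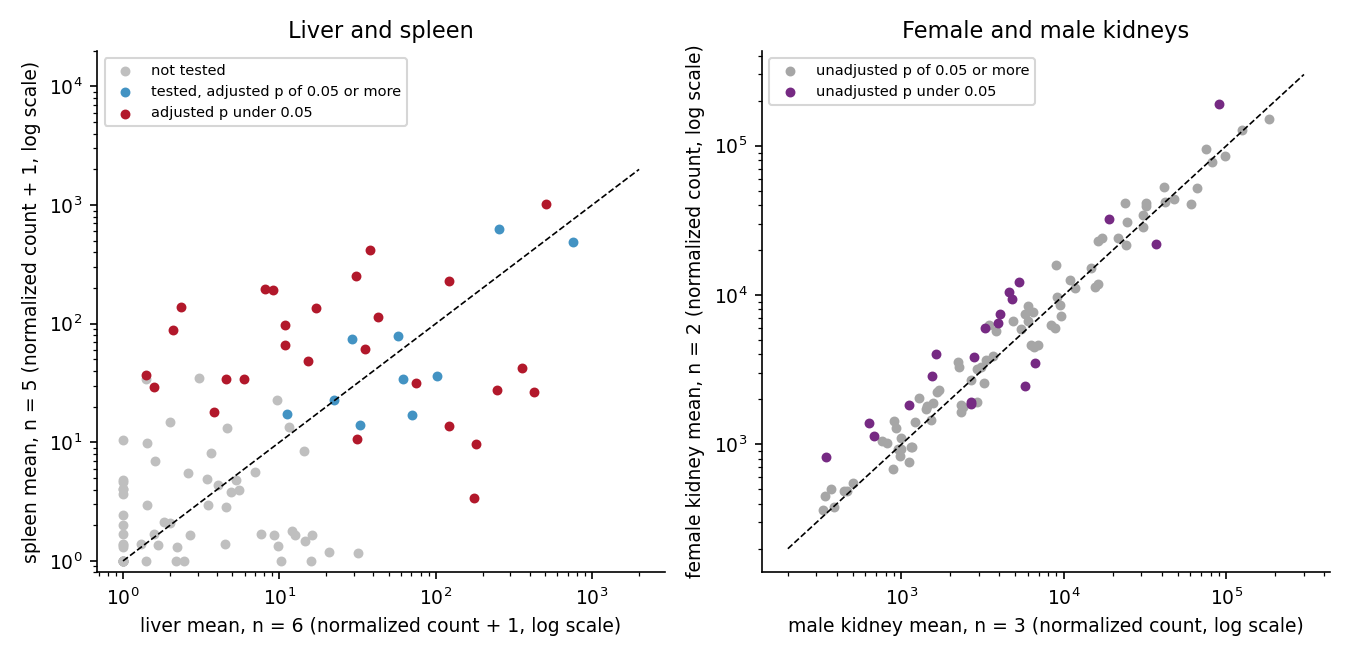
Left, mean level of each of the 101 genes in spleen (n = 5) against liver (n = 6), as normalized count + 1 on log scales; red genes differed at an adjusted p under 0.05 (27), blue genes were tested and did not pass (10), and grey genes were not tested (64). Right, mean level in the female kidneys (n = 2) against the male kidneys (n = 3) on log scales, with the 20 genes of an unadjusted p under 0.05 in purple; dashed lines mark equality.

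The kidney-restricted genes varied more between the 5 kidneys than other genes did. The ratio of the highest to the lowest kidney, which the rule held at 5 or less, had a median of 1.97 and ran from 1.14 to 4.71. The coefficient of variation had a median of 29.1% over the 101 genes and of 14.3% over the 12163 other genes with at least 200 in every kidney and the same limit on the ratio. Between the quartiles of the kidney level of the 101 genes the medians were 33.4% and 12.5%, so that the difference was also found at like levels. For 89 of the 101 genes the variation was above the median of the other genes. Without the kidney of M4091, which stands apart in its sum as given below, the medians were 27.2% for the 101 genes and 12.9% for the others, a calculation added after seeing the data. This is a description over genes, which are not replicates, and no test was made.

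The most even gene was Monax4B016504, at 44414, 38905, 39820, 42740 and 42512 in the kidneys of F6849, F9150, M4046, M4075 and M4091. The next was Monax4B015850, at 3951, 3867, 4013, 3521 and 3395. In both, no kidney stood apart. The most uneven was Monax4B027848, at 1011, 1835, 668, 1643 and 390, and after it Monax4B008922, at 7280, 17238, 5365, 6827 and 3770. In both, F9150 was the highest and M4091 the lowest.

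This was the most frequent pair of highest and lowest kidney among the 101 genes. Of the 101 genes, 36 were highest in the kidney of F9150 (35.6%, against 26.5% of the other genes above), 24 in F6849 (23.8%, against 17.2%), 23 in M4091 (22.8%, against 25.8%), 11 in M4075 (10.9%, against 18.6%) and 7 in M4046 (6.93%, against 11.9%). The lowest kidney was that of M4091 in 27 genes (26.7%, against 24.4% of the other genes), M4075 in 21 (20.8%, against 15.7%), F9150 in 20 (19.8%, against 22.3%), M4046 in 17 (16.8%, against 20.2%) and F6849 in 16 (15.8%, against 17.5%). M4091 was thus lowest about as often as among genes in general. The pair of F9150 as highest and M4091 as lowest was found in 15 genes. How often such pairs occurred among the other genes was not counted. The opposite, with M4091 highest and F9150 lowest, was found in 10 of the 101 genes, so that these 2 kidneys were at both ends. F6849 was highest and M4075 lowest in 12 genes.

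The kidney of M4091 had the smallest sum, 82.1% of the mean, against 101% to 109% in the other 4. The difference lay mostly in the abundant genes. The 10 most abundant summed to 72.5% of their mean in M4091, and 5 of them were lowest there, whereas the other 91 genes summed to 94.6%. In F9150 the order was the other way round, with 93.5% for the 10 and 112% for the 91. The kidney of M4046 had 110% and 90.1%. The library of M4091 had the lowest total count of the kidneys, 63682684, and without it the 101 genes held 2.79% of the kidney counts. The part of depth in this difference was not tested.

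**Figure D5:**
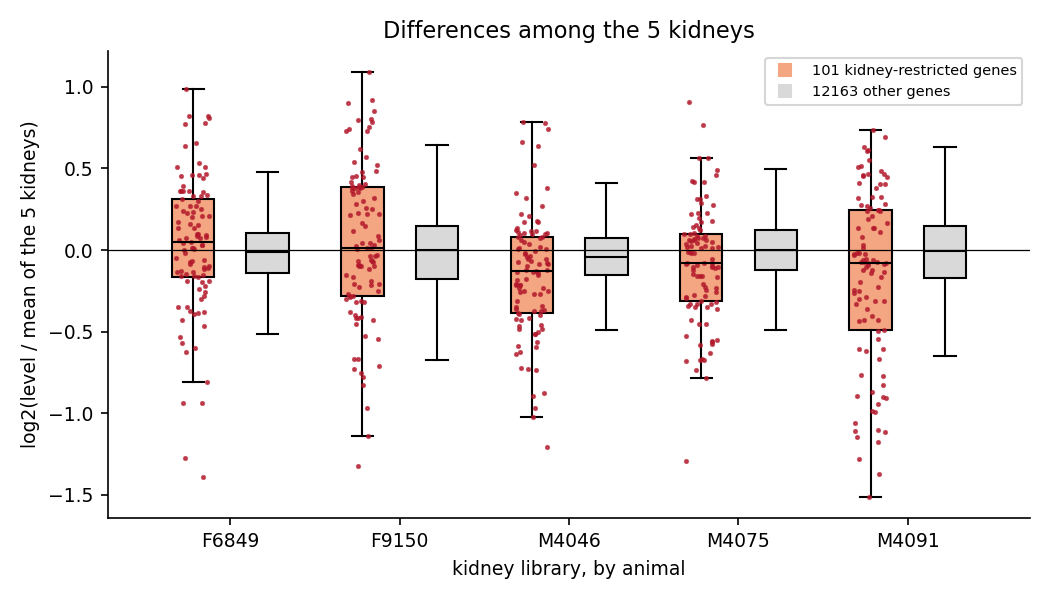
Level of a gene in each kidney over its mean in the 5 kidneys, on a log2 scale, for the 101 kidney-restricted genes (orange boxes with points) and 12163 other genes with at least 200 in every kidney and a ratio of at most 5 (grey boxes); boxes show the quartiles and the median, and whiskers reach at most 1.5 times the box. The orange boxes span 0.41 to 0.73 on the log2 scale and the grey ones 0.23 to 0.33.

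Female and male kidneys were compared over all genes, because the rule limited the spread among kidneys but used no sex. With 2 female and 3 male kidneys, edgeR's quasi-likelihood test called 0 of the 101 genes, and 0 (0%) of the 20520 genes tested, at an adjusted p under 0.05. The smallest adjusted p among the 101 genes was 0.439. At an unadjusted p under 0.05 there were 20 of the 101 genes (19.8%), against 8.01% of all genes. DESeq2 called 8 of the 101 genes (7.92%, against 1.98% of all genes), 6 of them higher in females (0.702% of all genes) and 2 higher in males (1.28%). All genes are here the 25056 with any count in kidney, whether or not DESeq2 gave them an adjusted p. All 101 genes had one, so the 2 shares are not over like sets. edgeR's likelihood-ratio test with observation weights called 7 (6.93%, against 1.80%), 6 higher in females (0.785%) and 1 higher in males (1.02%). These lists together hold 11 genes, 4 of them in both. Both female kidneys lay above all 3 male kidneys in 23 of the 101 genes (22.8%, against 11.9% of all genes tested) and below them in 11 (10.9%, against 13.3%). The median log2 difference of females over males was 0.17 among the 101 genes and -0.0033 over all genes. By the lane numbers in the column names, both female kidneys were in lane 3 and the male kidneys in 3 other lanes. Sex and lane thus cannot be told apart here.

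The genes with the smallest p in each direction are given as values. Monax4B020327 had 6310 and 5688 in the female kidneys and 3323, 2944 and 3500 in the male ones, without overlap (log2 difference 0.90, SE 0.13, adjusted p = 0.439 with edgeR's quasi-likelihood test and 5.93e-05 with DESeq2). Monax4B036447, which had no count outside kidney, had 3561 and 4493 in the females and 1568, 2105 and 1198 in the males. Its log2 difference was 1.33 (SE 0.26), with an adjusted p of 0.513 by edgeR's quasi-likelihood test and 0.0023 by DESeq2. Lower in females were Monax4B022121 and Monax4B032677. The first had 20819 and 23126 against 32171, 41115 and 36930 (log2 difference -0.72, SE 0.16, adjusted p = 0.519 with edgeR and 0.0094 with DESeq2). The second had 2318 and 2636 against 4731, 8310 and 4206 (log2 difference -1.19, SE 0.32, adjusted p = 0.559 with edgeR and 0.0413 with DESeq2). In all 4 genes the groups did not overlap, and the call depended on the test.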

How the data were processed

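Libraries were made with a TruSeq RNA kit, which does not keep the strand. The deposited values are read counts per gene of the Monax4B annotation, obtained by the authors with gemtools after gem-tools mapping, as whole numbers without normalization. The submitters' processing notes name CASAVA 1.8.4 and FastQC 0.11.5. The treatment of reads with several hits is not given in the sources used here, so genes with near-identical or overlapping copies are uncertain, and Monax4B can hold a gene in parts. Among the kidney-restricted genes, Monax4B042111 and Monax4B016109 had similar counts across the libraries, such as 993 and 1149 in the kidney of F6849. Monax4B024628 and Monax4B044208 also rose and fell together across the kidneys. Each was counted as a separate gene, and whether such pairs are 1 gene was not tested. Between 85.1% and 86.5% of the counts above 0 are even, as when both mates of a pair are counted. Every column was assigned to a sample by its title. The kidney-restricted genes, gene lists and tests were chosen with earlier results of these data known. The study describes a functional annotation of these genes, placed in another archive and not used here, so the lists of nephron markers were not looked up.

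Size factors used 16970 genes. Tests used R 4.3.3 and edgeR 4.0.16 (filterByExpr, TMM factors, robust quasi-likelihood fit without a block), with DESeq2 1.42.0 as an alternative. Only edgeR's quasi-likelihood test was also run on simulated data, and DESeq2 and the observation weights were not. SE is the log2 difference over the square root of F. Other values and figures used Python 3.11.15 and matplotlib 3.10.9. Liver and spleen libraries of an animal are paired: after removal of tissue means their r was 0.146 to 0.259, each over 0.1. No pair of libraries of a tissue was a duplicate (chi-square per degree of freedom of 127 or more). The genes named were, per tissue or direction, at most 2: those with the highest or lowest score, level or kidney ratio, the largest share of the kidney level, the largest differences among those called, or the smallest p where none was called. Totals ran from 59487004 to 140252555 counts per library.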

Additional observations from a re-analysis of the deposited data

Results flagged for a closer look

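Among 66 sets of 5 or 6 libraries, 7 had a library set apart by the gap to its nearest neighbour over the whole range. For any 1 set taken without regard to its values, chance gives about 1 in 20. The sets overlap and some genes were named for extreme values, so the 7 cannot be set against that rate. Of the 7, 3 are overlapping measures of the same genes in the kidney of M4091. Its share of counts on the 101 genes was 2.16%, against 2.74% to 2.87% in the other kidneys. Its summed level was 82.1% of the kidney mean, against 101% to 109%, and without Monax4B027271 it was again 82.1%, against 102% to 107%. The total count of this library, 63682684, is the lowest of the 5 kidneys. Its part in the result was not tested.

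The other 4 concern single genes. Monax4B008922 had 17238 in the kidney of F9150 and 3770 to 7280 in the others. Monax4B008503 had 752 in the liver of M4046 and 6.87 to 177 in the others. Monax4B008271 had 21.9 in the liver of M4075, from 12 counts, and 0 to 6.87 in the others. Monax4B027271 had 1698 in the spleen of F6849, the spleen with the highest total count (123267969), and 48.0 to 317 in the others, after scaling for depth.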

How the results depend on the processing

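The number of kidney-restricted genes was 102 with TMM-scaled counts, 105 with an offset of 1, 150 with medians of tissues and 103 to 135 with each kidney left out in turn, the highest without M4091, and all 101 genes were kept under these settings. With liver and spleen alone as the others it was 234, and 83 of the 101 were among the first 150. The share of kidney counts held by the genes was 2.38% without Monax4B027271 and 2.61% to 2.79% with each kidney left out. The sums stayed at 0.249% to 0.269% in liver and 0.299% to 0.331% in spleen with each library left out. From shares of the library totals, added after seeing the data, they were 0.0921% in liver and 0.322% in spleen. Between liver and spleen, 45 of the 101 genes were called with DESeq2, 46 without a filter and 53 with the kidney libraries in the fit; these settings test more of the genes (91, 91 and 101), and 19, 19 and 22 of them were higher in liver, against 8. Leaving out each library gave 23 to 29. With the animal as a block, on the 5 animals with both tissues, 28 of 37 differed, 26 of them shared with the 27 of the unblocked test. Monax4B027271 passed in the blocked test (adjusted p = 0.0363, edgeR), against 0.506 without the block. In the blocked edgeR test the adjusted p was 0.00139 for Monax4B043008, 0.0133 for Monax4B008503 and 0.0018 for Monax4B001585, each larger than without the block. For Monax4B045969 it was 0.00022, smaller than without the block. With the lane as a block, added after seeing the data, 25 differed, 24 shared with the 27. For females and males, DESeq2 called 8 and the observation weights 7, and the other alternatives, each kidney left out included, called 0. The cause of these differences between tests was not tested. Where a female was left out, the other was assumed to vary like the males. Depth limits the values outside kidney, where most genes have few counts, and tissues with 1 library have no error.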
